A study of Mus musculus with 27 samples.

Results

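Mitotic genes are described here across 9 groups of KUSA4b10 cells, an established mouse line made from marrow stroma. They are 40 genes whose products carry a cell from the end of G2 through division. A gene was represented by its probe set annotated to that symbol alone, and where there were several by the one with the highest mean log2 intensity over all 27 arrays. Of the 40 genes, 39 had such a probe set, among 18193 genes of the whole array, and all 39 passed the filter on dim signals. Ccnb1 had none with a single symbol and was not analysed here. The measured members were Cdk1 with 4 genes that act on its kinase activity (Ccna2, Ccnb2, Cdc25b and Cdc25c), the mitotic kinases Plk1, Aurka and Nek2, and the checkpoint genes Bub1, Bub1b, Ttk and Mad2l1. The chromosomal passenger complex was represented by Aurkb, Birc5, Incenp and Cdca8, the kinesin motors by Kif11, Kif20a, Kif23, Kif2c and Kif4, and the centromere and kinetochore by Cenpa, Cenpe, Cenpf, Ndc80 and Nuf2. The remaining members were Tpx2, Top2a and Mki67 (spindle assembly and chromosome structure), Prc1, Anln, Ect2 and Racgap1 (cytokinesis), the transcription factor Foxm1, and Cdc20, Ube2c, Pttg1, Espl1 and Cdca3 (anaphase and protein destruction).

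Dividing cells make most of these transcripts late in the cycle. The DREAM complex holds the genes silent in resting cells and early in the cycle, and MYB-MuvB with FOXM1 switches them on in G2. Cyclin B with CDK1 then drives entry into mitosis, the spindle checkpoint delays anaphase until chromosomes are attached, and CDC20 with the anaphase-promoting complex ends mitosis by marking cyclin B and securin for destruction. In a culture of mixed cells their summed level follows how many cells are dividing, so fewer dividing cells and less RNA per cell cannot be told apart in these bulk samples.

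Cells received PTHrP(1–141), a long form of parathyroid hormone-related protein, at 20 nM, or PTH(1–34), an N-terminal fragment of parathyroid hormone, at 10 nM, or were left untreated. RNA was taken after 1, 6 and 24 h, and each of the 9 groups had 3 biotin-labelled Affymetrix arrays of 1 colour. Both peptides act on the receptor encoded by Pth1r, but their doses and lengths differ, so dose and peptide cannot be told apart in any comparison of PTHrP with PTH. All groups come from 1 cell line, and the labels do not say whether replicates were separate cultures, so the spread between arrays may be technical.

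Array medians lay between 83.15 and 91.08 on the deposited linear intensity scale. Across genes, which are not independent replicates, log2 values of arrays within a group correlated at 0.9941 to 0.9982, except that the lowest correlation with PTHrP at 1 h was 0.9882, where replicate 3 stood apart. Of the markers of the labelled cell type, Col1a1, encoding type I collagen, ran from 13.69 to 14.80 in log2 intensity and Pth1r from 9.99 to 11.39. Of 7 macrophage and leukocyte markers 5 passed the filter, from Csf1r, the receptor of a macrophage growth factor, at 7.58 to 8.21 down to Adgre1 at 5.06 to 5.79. Ptprc, the leukocyte marker CD45, and Itgam failed it, at 3.89 to 4.38 and 3.90 to 4.39. Transcripts of adipocytes were present, with Adipoq, encoding adiponectin, at 9.92 to 12.09.

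Promoters of mitotic genes often carry a CHR element, the site read by the DREAM and MuvB complexes, and CCAAT boxes, read by the factor NF-Y. RefSeq promoters of the GRCm38.p6 build, from 250 bases before to 50 bases after the annotated start, were held for 33 of the 40 genes. There was none for Ccna2, Cdc25c, Aurkb, Incenp, Kif20a, Tpx2 and Foxm1. A CHR was searched as TTTGAA or TTCGAA and a CCAAT box as CCAAT, each on both strands, so that TTCAAA and ATTGG also count, and the motifs were counted separately even where they share a base. A CHR stood in 26 of the 33 promoters (78.8%), against 21.7% of the promoters of 27025 genes. At least 1 CCAAT box stood in 26 of 33 (78.8%), against 41.1% of all, and at least 2 in 17 of 33 (51.5%), against 13.3%. Both motifs were found together in 23 of 33 (69.7%), against 8.61% of all genes. Birc5, Mad2l1, Nuf2 and Pttg1 had neither in these windows, which is a statement on letters and not on the factors. The 150 bases before the start are shown 5′ to 3′ on the gene's strand for 6 members with different motif content, with each motif in capitals. They are Cdk1 (chr10:69352913-69353062, minus strand), Cdc20 (chr4:118437344-118437493, minus), Top2a (chr11:99024190-99024339, minus), Ube2c (chr2:164769779-164769928, plus), Kif11 (chr19:37376232-37376381, plus) and Mad2l1 (chr6:66535071-66535220, plus). Mad2l1 is included as a member without a motif that had the largest ligand difference of all members at 6 h.
Cdk1: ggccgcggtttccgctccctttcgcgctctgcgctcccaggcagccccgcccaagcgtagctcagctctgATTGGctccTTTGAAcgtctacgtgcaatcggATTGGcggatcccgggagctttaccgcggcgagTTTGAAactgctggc
Cdc20: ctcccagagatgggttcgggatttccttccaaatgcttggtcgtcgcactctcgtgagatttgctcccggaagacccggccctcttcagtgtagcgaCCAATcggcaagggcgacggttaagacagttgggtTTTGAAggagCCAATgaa
Top2a: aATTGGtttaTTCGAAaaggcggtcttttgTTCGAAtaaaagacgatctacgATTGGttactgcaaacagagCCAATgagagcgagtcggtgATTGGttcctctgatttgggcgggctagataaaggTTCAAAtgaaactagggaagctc
Ube2c: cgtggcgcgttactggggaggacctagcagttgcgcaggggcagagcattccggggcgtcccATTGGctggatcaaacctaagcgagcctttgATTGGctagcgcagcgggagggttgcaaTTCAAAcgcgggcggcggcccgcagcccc
Kif11: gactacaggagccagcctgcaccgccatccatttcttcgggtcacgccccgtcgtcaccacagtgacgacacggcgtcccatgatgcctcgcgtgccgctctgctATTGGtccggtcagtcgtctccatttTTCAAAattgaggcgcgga
Mad2l1: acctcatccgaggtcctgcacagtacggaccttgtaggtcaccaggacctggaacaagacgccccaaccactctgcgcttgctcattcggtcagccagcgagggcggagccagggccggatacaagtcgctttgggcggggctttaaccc

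In these 150 bases Top2a has 4 CCAAT boxes and 3 CHR, Cdk1 has 2 and 2, Cdc20 and Ube2c have 2 CCAAT boxes and 1 CHR, and Kif11 has 1 of each. The members that were measured on the arrays and also had a promoter entry divide into 26 with a CHR in the full window and 6 without. With PTHrP at 24 h the median log2 difference from untreated cells was -0.78 with a CHR and -0.78 without, and with PTH it was -0.65 and -0.60. Of the members with a CHR 25 fell with PTHrP and 23 with PTH, and of the 6 without, 6 and 5 did; this split was not tested.

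The mitotic genes formed a block that was high at 1 and 6 h and low at 24 h in every treatment, and lowest at 24 h in cells that had received a ligand. Each gene was centred on its own mean over the 27 arrays and the 39 genes were averaged per array, giving a log2 level for the block. At 1 h the level was 0.70 ± 0.14 with PTHrP, 0.68 ± 0.09 with PTH and 0.67 ± 0.01 in untreated cells (SD, n = 3 each). At 6 h it was 0.30 ± 0.02 with PTHrP, 0.45 ± 0.09 with PTH and 0.54 ± 0.07 in untreated cells. At 24 h it was -1.41 ± 0.09 with PTHrP, -1.30 ± 0.12 with PTH and -0.64 ± 0.08 in untreated cells. No array of either ligand at 24 h reached the lowest untreated array of that time. Of the 39 genes, 30 had their lowest group mean with PTHrP at 24 h and the other 9 with PTH at 24 h.

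**Figure D1:**
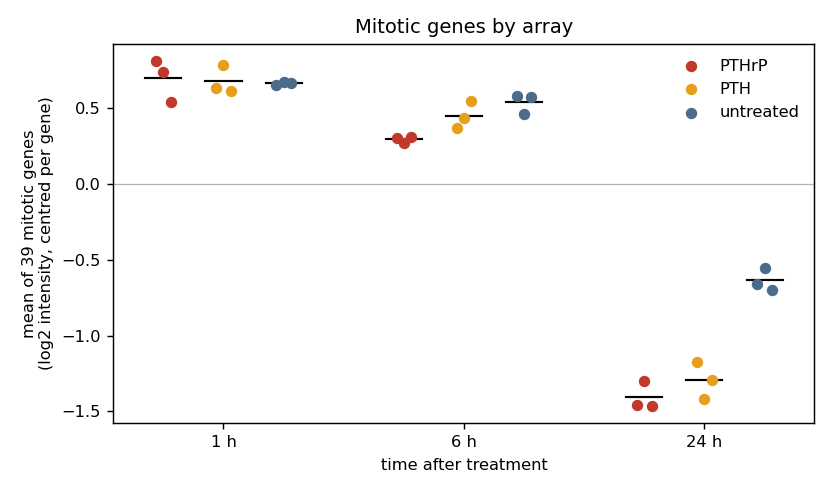
Mean of the 39 mitotic genes on each array, in log2 intensity centred per gene (vertical axis), at 1, 6 and 24 h (horizontal axis). Points are arrays and bars are means of 3 arrays, and at 24 h the PTHrP arrays (-1.46 to -1.30) and the PTH arrays (-1.42 to -1.18) lie below the untreated arrays (-0.70 to -0.55).

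Untreated cells themselves lost mitotic transcripts over the day. All 39 genes fell in untreated cells at 24 h against 1 h (limma, Benjamini-Hochberg adjusted p under 0.05), where 11.5% of the 15711 genes tested fell and 11.6% rose (23.1% in either direction), and all 39 had 24 h arrays wholly below the 1 h arrays, against 20.6% of all genes. The median log2 difference was -1.33, with a range of -1.93 to -0.43. By more than 2-fold 32 members fell, and the share of all genes past that fold was not computed. Aurkb, the catalytic kinase of the chromosomal passenger complex, averaged 7.10 ± 0.07 at 24 h and 9.03 ± 0.09 at 1 h in log2 intensity (SD, n = 3 each), a difference of -1.93 ± 0.09 (SE, adjusted p = 4.63e-13). The next were Bub1, a checkpoint kinase (-1.77), Birc5, which encodes survivin (-1.70), Top2a, the DNA topoisomerase that untangles sister chromatids (-1.68), and the S and G2 cyclin gene Ccna2 (-1.64). The smallest declines, on the probe sets used here, were those of Cdc25c (-0.75), Foxm1 (-0.53) and Cdc25b (-0.43). Most of the fall came after 6 h. At 6 h against 1 h in untreated cells 0 members passed in limma (2.27% of all genes did). At an unadjusted p under 0.05 there were 9, all of them lower at 6 h, and the share of all genes at that cutoff was not computed. The values at 24 h against 6 h were 39 lower and 0 higher, where 11.4% of all genes fell and 12.1% rose (23.4% in all), with a median of -1.16.

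**Figure D2:**
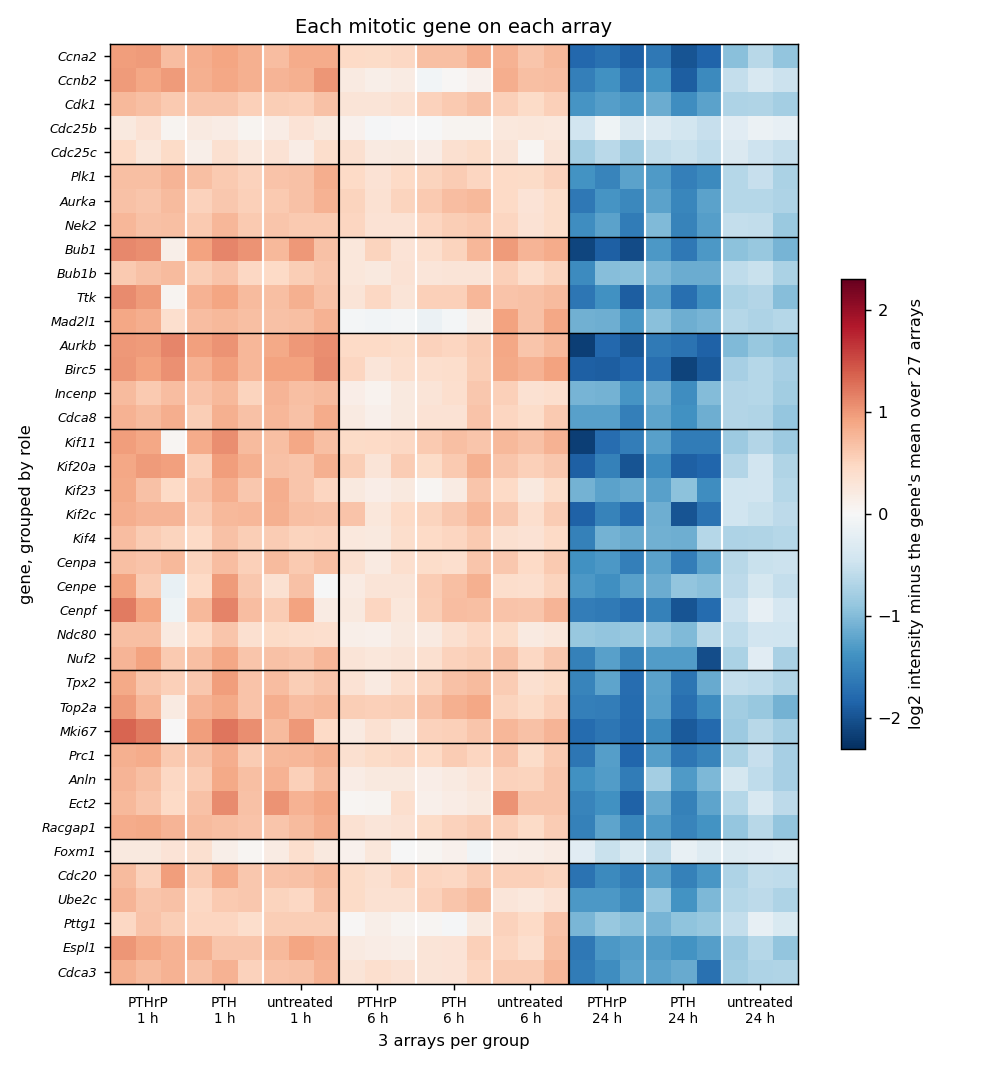
Log2 intensity of each of the 39 mitotic genes on each of the 27 arrays, minus the gene's own mean (colour, red high and blue low), with genes in rows by role and groups of 3 arrays in columns. The darkest blue stands with both ligands at 24 h, and the third PTHrP array at 1 h is pale for Bub1, Ttk, Kif11, Cenpe, Cenpf, Mki67 and Top2a.

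At 24 h both ligands lowered nearly the whole set below the untreated cells of the same time. With PTHrP 36 of 39 members fell and 0 rose, where 3.02% of all genes tested fell and 3.09% rose (6.1% in either direction), and the PTHrP arrays lay wholly below the untreated arrays for 37 members, against 12.7% of all genes. With PTH 33 of 39 fell and 0 rose, where 5.96% of all genes fell and 5.69% rose (11.6% in all), and the PTH arrays did not overlap for 36, against 11.8%. The median log2 difference was -0.80 with PTHrP and -0.64 with PTH, while the median of all genes was -0.01 with PTHrP and 0.00 with PTH. The fall exceeded 2-fold for 9 members with PTHrP and for 5 with PTH, and the share of all genes past that fold was not computed. Both comparisons share the 3 untreated arrays, so they are not independent of each other.

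The largest falls with each ligand were those of a kinetochore gene, 2 kinesins, survivin and a mitotic cyclin. Cenpf, a large kinetochore protein made in G2, had log2 intensities of 6.65, 6.61 and 6.50 with PTHrP and 6.69, 6.26 and 6.47 with PTH, against 7.77, 8.04 and 7.85 in untreated cells. The highest ligand array stood over 1 log2 unit below the lowest untreated one. The differences were -1.30 ± 0.21 with PTHrP (adjusted p = 0.00017) and -1.41 ± 0.21 with PTH (adjusted p = 3.88e-05, limma, SE), and -0.55 and -0.72 when the probe sets of Cenpf were averaged. Birc5, whose product survivin targets the passenger complex to centromeres, had 7.38, 7.35 and 7.42 with PTHrP and 7.52, 7.13 and 7.32 with PTH, against 8.49, 8.59 and 8.49 in untreated cells. This is a gap with little spread within the groups, of -1.14 ± 0.08 with PTHrP (adjusted p = 2.34e-09) and -1.20 ± 0.08 with PTH (adjusted p = 2.18e-10). Ccnb2, which encodes a partner of CDK1, had 7.65, 7.84 and 7.53 with PTHrP and 7.86, 7.34 and 7.76 with PTH, against 8.68, 8.86 and 8.73 in untreated cells. Its differences were -1.08 ± 0.10 with PTHrP and -1.10 ± 0.10 with PTH. The kinesins were Kif20a, which acts at the central spindle (-1.21 ± 0.13 with PTHrP, -1.11 ± 0.13 with PTH), and Kif2c, which depolymerises microtubules at centromeres (-1.20 ± 0.14 with PTHrP, -1.07 ± 0.14 with PTH).

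On the probe sets used here, members of every role but the transcription factor fell at 24 h. That role holds Foxm1 alone, and another of its probe sets did fall, as given below. Of the 5 measured genes around Cdk1, 3 fell with each ligand. Cdk1, the kinase that drives mitotic entry, had 9.16, 9.26 and 9.19 with PTHrP and 9.39, 9.11 and 9.29 with PTH, against 9.81, 9.84 and 9.74 in untreated cells, so that all ligand arrays lay below all untreated ones. The differences were -0.60 ± 0.07 with PTHrP and -0.53 ± 0.07 with PTH. All 3 mitotic kinases fell with both ligands. Plk1, which acts at centrosomes, kinetochores and the midzone, differed by -0.74 with PTHrP and -0.81 with PTH, and Aurka, the centrosomal Aurora kinase, by -0.83 and -0.65 in the same order. All 4 genes of the passenger complex fell with both, among them Aurkb by 1.03 log2 units with PTHrP and by 0.78 with PTH. Among the genes of anaphase and protein destruction all 5 fell with both. Cdc20, the activator of the anaphase-promoting complex, differed by -0.97 with PTHrP and -0.76 with PTH, and Ube2c, the ubiquitin-conjugating enzyme of that complex, by -0.71 and -0.44. All 3 genes of spindle assembly and chromosome structure fell with both. Mki67, the antigen used to mark cycling cells, had 7.73, 7.84 and 7.71 with PTHrP and 8.03, 7.56 and 7.70 with PTH, against 8.67, 8.86 and 8.71 in untreated cells. Its difference was -0.98 ± 0.21 with each ligand, and that of Top2a was -0.73 ± 0.13 with PTHrP and -0.56 ± 0.13 with PTH. All 4 cytokinesis genes fell with both, such as Ect2, the exchange factor that activates RhoA at the division plane (-1.04 with PTHrP, -0.77 with PTH). The role medians ran from -1.05 (kinesins) to -0.60 (genes around Cdk1) with PTHrP and from -0.81 (centromere and kinetochore) to -0.48 (checkpoint) with PTH, leaving out Foxm1, which stands alone.

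Values that bear on RNA quality and cell makeup were compared over the same groups. The 3′ probe set of Actb, encoding beta-actin, exceeded the 5′ one at 24 h by 0.44 ± 0.01 log2 units with PTHrP, 0.42 ± 0.01 with PTH and 0.38 ± 0.01 in untreated cells (SD, n = 3 each). At 1 h the 3 values were 0.28 ± 0.03, 0.27 ± 0.02 and 0.23 ± 0.02 in the same order. For Gapdh at 24 h it was -0.22, -0.21 and -0.21. Over all genes, 6.1% passed with PTHrP and 11.6% with PTH at 24 h. Of 8 stromal and osteoblast markers, 4 fell with PTHrP and 6 with PTH at 24 h, and their mean log2 level lay at 12.05 to 12.34 with PTHrP, 11.57 to 11.82 with PTH and 12.64 to 12.67 in untreated cells. Of 4 adipocyte markers, 0 passed in limma with PTHrP (2 at an unadjusted p under 0.05) and 2 fell with PTH, and their mean lay at 9.36 to 10.20 with PTHrP, 9.32 to 9.82 with PTH and 9.92 to 10.35 in untreated cells. Of 4 tested chondrocyte markers, 2 fell with each ligand, and the mean of 5 lay at 6.17 to 6.36 with PTHrP, 6.25 to 6.41 with PTH and 6.55 to 6.60 in untreated cells. Of the 5 tested macrophage and leukocyte markers, 0 passed in limma with PTHrP (1 at an unadjusted p under 0.05) and 1 fell with PTH, and the mean of 7 lay at 5.67 to 5.68, 5.50 to 5.78 and 5.73 to 5.83 in the same order of groups. Of 4 endothelial and 5 muscle markers 0 passed in limma with either ligand, and 1 muscle marker reached an unadjusted p under 0.05 with PTHrP. The part of these in the fall of the mitotic genes was not tested.

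A few members stood apart at 24 h. Foxm1, the forkhead factor that activates G2 genes, had 8.003, 7.739 and 7.914 with PTHrP and 7.697, 8.089 and 7.961 with PTH, against 7.965, 7.994 and 8.033 in untreated cells, and the groups overlapped. Its difference was -0.11 ± 0.10 with PTHrP (adjusted p = 0.701) and -0.08 ± 0.10 with PTH (adjusted p = 0.726). Its probe sets disagreed. In a fit over all probe sets, made after the values above were seen, a second one gave -0.85 with PTHrP (adjusted p = 5.58e-05) and -0.51 with PTH (adjusted p = 0.00826), and another -0.14 and -0.21 without passing; the last one was too dim to be tested. Cdc25b, a phosphatase that switches on CDK1, missed the threshold at -0.10 with PTHrP (adjusted p = 0.684) and -0.23 with PTH (adjusted p = 0.068). Cdc25c, its relative, missed it at -0.29 with PTHrP (adjusted p = 0.0562) and -0.10 with PTH (adjusted p = 0.618), whereas its second probe set passed at -0.53 with PTHrP (adjusted p = 0.000675) and -0.39 with PTH (adjusted p = 0.00859). In the same fit, of the 40 other probe sets of 24 members, 19 fell and 0 rose with PTHrP at 24 h. The counts with PTH were likewise 19 and 0, and 37 of 40 had the sign of the probe set used here. The share of all probe sets that fell in that fit is not given here.

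Bub1, Cenpe and Kif4 passed with PTHrP and not with PTH at 24 h. Bub1 had 6.52, 6.75 and 6.57 with PTHrP and 7.30, 6.99 and 7.31 with PTH, against 7.68, 7.76 and 7.56 in untreated cells, so that the 3 groups did not overlap. It differed from untreated cells by -1.05 ± 0.17 with PTHrP (adjusted p = 0.000119) and by -0.47 ± 0.17 with PTH (adjusted p = 0.0781). Cenpe, a kinesin that moves chromosomes to the spindle equator, differed by -0.80 ± 0.18 with PTHrP (adjusted p = 0.0061) and -0.48 ± 0.18 with PTH (adjusted p = 0.101). Kif4, a chromosome-bound kinesin, differed by -0.57 with PTHrP (adjusted p = 0.00106) and -0.27 with PTH (adjusted p = 0.129). The direct comparison did not separate the ligands for these 3 genes. PTHrP against PTH gave -0.59 (95% interval -0.94 to -0.24, adjusted p = 0.104) for Bub1, -0.32 (-0.70 to 0.06, adjusted p = 0.654) for Cenpe and -0.30 (-0.53 to -0.08, adjusted p = 0.272) for Kif4. Over the whole set, PTHrP against PTH at 24 h gave 0 members past the threshold in limma, where 1.16% of all genes passed. At an unadjusted p under 0.05 there were 9, all lower with PTHrP. The share of all genes at that unadjusted cutoff was not computed, so this count has no background. The median was -0.10.

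**Figure D3:**
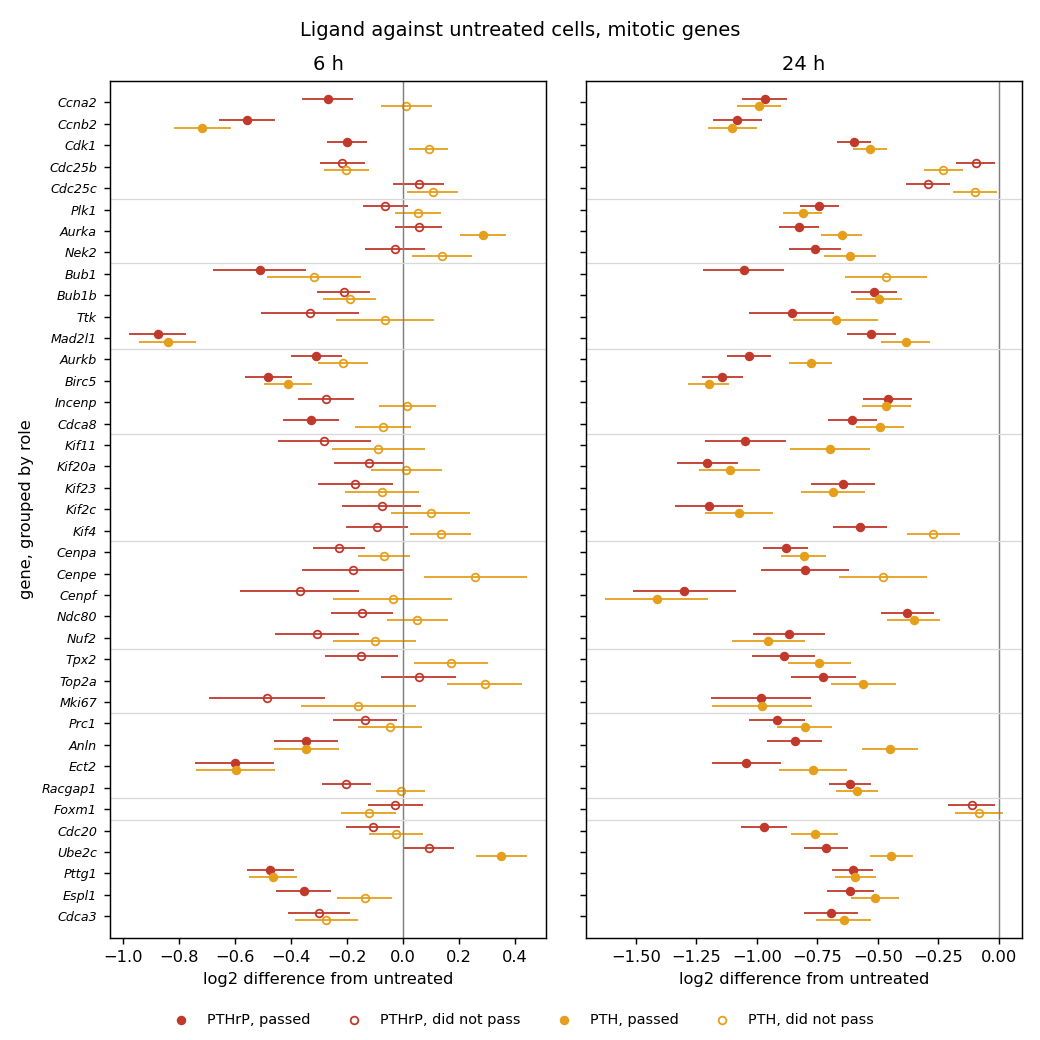
Log2 difference from untreated cells of the same time (horizontal axes) for the 39 mitotic genes, grouped by role (vertical axis), at 6 h (left) and 24 h (right), with PTHrP and PTH as separate points and bars of 1 standard error. Filled points passed an adjusted p of 0.05; at 24 h 36 members did with PTHrP and 33 with PTH, all below 0, whereas at 6 h 12 and 8 did.

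At 6 h fewer members passed than at 24 h. With PTHrP 12 of 39 members fell and 0 rose, where 12.2% of all genes fell and 8.7% rose (20.9% in all), and the PTHrP arrays lay wholly below the untreated ones for 26 members, against 21% of all genes. With PTH 6 fell and 2 rose, where 17.9% of all genes fell and 11.4% rose, so that the share of members called with PTH (8 of 39) was below the 29.3% of all genes called in either direction. Of the 39 differences 35 were below 0 with PTHrP and 24 with PTH. The median difference was -0.22 with PTHrP and -0.07 with PTH, beside 0.03 and 0.00 over all genes. The PTHrP count was sensitive to single arrays of the untreated group. It was 7 without untreated replicate 1 of 6 h, where 2484 of all genes passed. It was 6 without untreated replicate 3 of 6 h, where 2752 did, against 3288 in the main fit. It was 21 with array weights, under which 44.2% of all genes were called, and that of PTH was 13 when only the arrays compared entered the fit (30.6% of all genes). In the fit over all probe sets, 3 of the 40 other probe sets of 24 members fell with PTHrP at 6 h and 2 with PTH, and 0 rose. The share of all probe sets that fell in that fit is not given here, so these counts have no background beside them. The sign was that of the probe set used here for 30 of 40 with PTHrP and 27 of 40 with PTH.

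Markers differed between the groups at 6 h too, where 20.9% of all genes passed with PTHrP and 29.3% with PTH. Of the 8 stromal and osteoblast markers 3 fell with each ligand, and their mean lay at 12.77 to 12.88 with PTHrP, 12.60 to 12.62 with PTH and 13.12 to 13.16 in untreated cells. Of 4 chondrocyte markers 2 rose with PTHrP and 1 with PTH, 1 of 4 adipocyte markers fell with PTH, and 1 of 5 macrophage and leukocyte markers rose with PTH. The 3′ probe set of Actb exceeded the 5′ one by 0.30 ± 0.05 with PTHrP, 0.34 ± 0.01 with PTH and 0.25 ± 0.05 in untreated cells (SD, n = 3 each). Their part in the 6 h differences of the mitotic genes was not tested.

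Mad2l1, Ccnb2, Ect2, Pttg1, Birc5 and Anln fell with PTHrP and with PTH at 6 h, in comparisons that share the untreated arrays. Mad2l1, the checkpoint protein that holds back CDC20, had 9.87, 9.85 and 9.86 with PTHrP and 9.78, 9.86 and 10.05 with PTH, against 10.83, 10.59 and 10.79 in untreated cells. Every ligand array was below every untreated array, and the differences were -0.88 ± 0.10 with PTHrP (adjusted p = 4.42e-07) and -0.84 ± 0.10 with PTH (adjusted p = 4.29e-07). Ccnb2 had 9.44, 9.37 and 9.42 with PTHrP and 9.16, 9.26 and 9.34 with PTH, against 10.07, 9.91 and 9.93 in untreated cells. It differed by -0.56 ± 0.10 with PTHrP and -0.72 ± 0.10 with PTH. Ect2 differed by -0.60 ± 0.14 with each ligand, and Pttg1, encoding securin, the inhibitor of separase, by -0.47 ± 0.09 with each. Birc5 had 9.74, 9.53 and 9.63 with PTHrP and 9.64, 9.65 and 9.82 with PTH, against 10.12, 10.05 and 10.17 in untreated cells, and differed by -0.48 with PTHrP and -0.41 with PTH. Anln, a scaffold of the contractile ring, differed by -0.35 with each ligand (adjusted p = 0.0325 with PTHrP and 0.0248 with PTH). The other 6 that passed with PTHrP were Bub1 (-0.51), Espl1, encoding separase (-0.36), the passenger genes Cdca8 (-0.33) and Aurkb (-0.31), Ccna2 (-0.27) and Cdk1 (-0.20). With PTH these 6 lay between -0.32 (Bub1) and 0.09 (Cdk1) and did not pass.

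**Figure D4:**
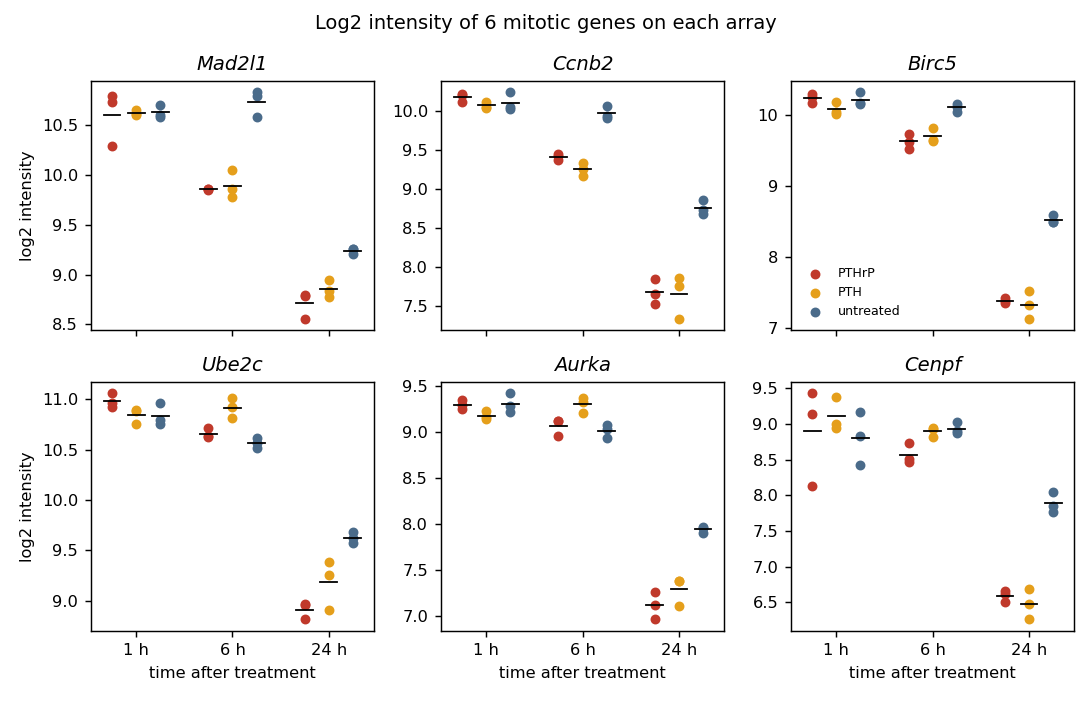
Log2 intensity (vertical axes) of Mad2l1, Ccnb2, Birc5, Ube2c, Aurka and Cenpf on each array (points) with the mean of 3 arrays (bars), at 1, 6 and 24 h (horizontal axes), in cells with PTHrP, with PTH and untreated. Mad2l1, Ccnb2 and Birc5 are already lower with both ligands at 6 h, Aurka and Ube2c are higher with PTH at 6 h, and all 6 are lower with both ligands at 24 h.

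Aurka and Ube2c went the other way with PTH at 6 h. Aurka had 9.12, 8.96 and 9.12 with PTHrP and 9.21, 9.32 and 9.37 with PTH, against 9.07, 8.93 and 9.03 in untreated cells, with PTH arrays above all others. It rose by 0.29 ± 0.08 with PTH (adjusted p = 0.00966) and differed by 0.06 ± 0.08 with PTHrP (adjusted p = 0.689). Ube2c had 10.71, 10.63 and 10.63 with PTHrP and 10.82, 10.93 and 11.01 with PTH, against 10.57, 10.52 and 10.62 in untreated cells. It rose by 0.35 ± 0.09 with PTH (adjusted p = 0.00376) and differed by 0.09 ± 0.09 with PTHrP (adjusted p = 0.523). The direct comparison of PTHrP with PTH gave -0.23 (95% interval -0.40 to -0.06, adjusted p = 0.0947) for Aurka and -0.26 (-0.45 to -0.07, adjusted p = 0.0839) for Ube2c, so neither difference between the ligands passed. Top2a was 0.06 with PTHrP and 0.29 with PTH and passed with neither (adjusted p = 0.812 and 0.111). Plk1 (-0.06 and 0.05) and Cdc20 (-0.11 and -0.03) did not pass either, in the same order of ligands, nor did Mki67 (-0.49 and -0.16), Cenpe (-0.18 and 0.26) and Foxm1 (-0.03 and -0.12).

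Between the ligands at 6 h, 1 member passed, Cdk1, where 7.62% of all genes passed. Cdk1 had 10.82, 10.83 and 10.88 with PTHrP, against 11.06, 11.13 and 11.21 with PTH and 11.07, 10.97 and 11.08 in untreated cells, so that the PTHrP arrays lay below all others. PTHrP against PTH was -0.29 ± 0.07 (adjusted p = 0.0114). The call is lost, with 0 members left and 711 of all genes called, when PTH replicate 3 of 6 h is left out. The count is 3 without PTH replicate 1 or 2 of 24 h or PTHrP replicate 3 of 1 h (1354, 1202 and 1641 of all genes). It is 2 without untreated replicate 2 of 24 h (1074 of all genes). It is 14 with array weights, under which 28.9% of all genes passed, and 4 with cyclic loess (10.1% of all genes). At an unadjusted p under 0.05 there were 10 members, all lower with PTHrP, and the share of all genes at that cutoff was not computed. For 19 members the PTHrP arrays lay wholly below the PTH arrays, against 10.6% of all genes. The median was -0.18 over the members and 0.04 over all genes.

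At 1 h neither ligand moved a member past the threshold in limma. With PTHrP 0 of 39 passed (1.81% of all genes did) and 1 reached an unadjusted p under 0.05, and with PTH 0 passed (1.74% of all genes did) and 0 reached it. PTHrP against PTH at 1 h gave 0 members, as it gave 0% of all genes, and 1 at an unadjusted p under 0.05. Replicate 3 with PTHrP was low for some members: Mki67 had 10.84, 10.68 and 9.50 with PTHrP, against 10.46, 10.72 and 10.56 with PTH and 10.22, 10.49 and 9.95 in untreated cells. Bub1 had 9.74, 9.70 and 8.77 with PTHrP, against 9.56, 9.75 and 9.67 with PTH and 9.38, 9.62 and 9.31 in untreated cells. Cenpf had 9.43, 9.14 and 8.13 with PTHrP, against 8.99, 9.38 and 8.95 with PTH and 8.83, 9.17 and 8.43 in untreated cells. Other members did not share this, as Birc5 had 10.26, 10.18 and 10.30 with PTHrP, against 10.05, 10.20 and 10.02 with PTH and 10.17, 10.18 and 10.33 in untreated cells. Without that array, 1 member passed with PTHrP at 1 h, Mki67, at 0.54 (adjusted p = 0.0106), where 931 of all genes passed.

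The change of each ligand's effect with time was tested directly. For 24 h against 6 h with PTHrP, the effect moved down for 21 members and up for 0, where 5.03% of all genes moved down and 7.08% up (12.1% in all), with a median change of -0.52. With PTH it moved down for 23 and up for 1, where 7.82% of all genes moved down and 12.6% up (20.4% in all), with a median of -0.61. Kif2c and Kif20a changed by -1.12 ± 0.20 and -1.08 ± 0.18 with PTHrP and by -1.17 ± 0.20 and -1.12 ± 0.18 with PTH. Aurka changed by -0.88 ± 0.12 with PTHrP and -0.94 ± 0.12 with PTH. Mad2l1 was the 1 member whose effect moved up, by 0.46 ± 0.14 with PTH (adjusted p = 0.0238). Its value with PTHrP was 0.35 ± 0.14 (adjusted p = 0.122), and it was still lower than in untreated cells at 24 h, by -0.53 with PTHrP and -0.38 with PTH. For 6 h against 1 h the effect moved down for 5 members with PTHrP, where 8.45% of all genes did and 3.74% moved up (12.2% in all), namely Mad2l1 (-0.86), Ccnb2 (-0.63), Birc5 (-0.50), Pttg1 (-0.47) and Espl1 (-0.42). The count was 13 without PTHrP replicate 3 of 1 h, where 4087 of all genes passed in either direction, against 1915 in the main fit. With PTH it moved down for 3, Mad2l1 (-0.83), Ccnb2 (-0.69) and Pttg1 (-0.36), where 12.1% of all genes did, and up for Aurka (0.41 ± 0.12, adjusted p = 0.0136), where 6.49% did (18.5% in all).

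The members shared one course over the 9 groups. Each member's 9 group means were correlated with the mean of the other members, and Pearson's r ran from 0.9539 (Mad2l1) to 0.9988 (Aurkb) with a median of 0.9941. This describes 9 points, of which 3 at 24 h lie far from the rest, and all genes were read from the same arrays. Next lowest were Cdc25b (0.9602) and Foxm1 (0.9718), whose group means spanned 0.67 and 0.64 log2 units, against 2.03 for Mad2l1. These values hold for the probe sets used. Another Foxm1 probe set ran from 6.10 to 8.85 over the arrays, against 7.70 to 8.65 for the one used. Within groups, the deviations of the 27 arrays from their group means correlated with the other members at a median r of 0.62, from -0.58 for Foxm1 to 0.86.

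Other genes of the cell cycle were set beside the members. Over all genes at 24 h, 3.02% fell and 3.09% rose with PTHrP, and 5.96% fell and 5.69% rose with PTH. The shares at 6 h were 12.2% and 8.7% with PTHrP and 17.9% and 11.4% with PTH. Of 74 tested genes on a further list of mitotic genes, 37 fell and 1 rose (Zwint, 0.30) with PTHrP at 24 h (median -0.43), and 31 fell and 0 rose with PTH (median -0.27). Among them were Depdc1a (-1.18 with PTHrP, -1.11 with PTH), Aspm, a spindle pole protein (-1.09 and -1.05), and Nusap1, which bundles microtubules (-1.08 and -1.03), in the same order of ligands. At 6 h, 25 of the 74 fell and 2 rose with PTHrP (median -0.24), and 13 fell and 5 rose with PTH (median -0.08). The highest was Ube2s, a ubiquitin-conjugating enzyme that works with UBE2C, at 0.27 with PTHrP and 0.69 with PTH. Genes of S phase moved in another order. Of 26, 19 fell and 0 rose with PTHrP and 14 fell and 1 rose (Rrm2) with PTH at 6 h (medians -0.41 and -0.27), while at 24 h 6 fell and 0 rose with PTHrP and 3 fell and 2 rose (Cdt1 and Mcm7) with PTH (medians -0.12 and -0.01). From 6 to 24 h the ligand effect on S phase genes moved up for 8 and down for 1 with either ligand, with medians of 0.27 and 0.28, where the members moved down. Over all genes it moved up for 7.08% and down for 5.03% with PTHrP, and for 12.6% and 7.82% with PTH. At 6 h the DNA replication genes Mcm6 and Pola1 differed by -0.87 and -0.88 with PTHrP and by -0.89 and -0.80 with PTH. In untreated cells 25 of the 26 fell at 24 h against 1 h, with a median of -0.90, where 11.5% of all genes fell.

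Subunits of the anaphase-promoting complex, which is present in resting cells too, were measured beside them. Over all genes, 6.1% passed with PTHrP and 11.6% with PTH at 24 h, and 20.9% and 29.3% at 6 h. Of 15 subunits, 0 passed in limma with PTHrP at 24 h (1 at an unadjusted p under 0.05) and 1 with PTH, Anapc4 (-0.21 ± 0.07, adjusted p = 0.0384), with medians of 0.00 and -0.01. At 6 h 2 fell and 0 rose with PTHrP, and 5 fell and 2 rose with PTH, with medians of -0.02 and 0.04; the largest difference was that of Anapc11 with PTH (-0.37). Of 22 genes of the DREAM, MuvB and E2F factors, which regulate the members, 9 fell and 1 rose with PTHrP and 8 fell and 1 rose with PTH at 6 h, the 1 that rose being Lin37, a MuvB subunit (0.28 with PTHrP, 0.29 with PTH). Among these, E2f6, a repressor, differed by -0.69 with PTHrP and -0.73 with PTH and Rb1, the retinoblastoma gene, by -0.68 and -0.88. At 24 h 1 of the 22 fell with PTHrP, E2f7 (-0.78 ± 0.10), and 0 passed in limma with PTH (4 at an unadjusted p under 0.05). Of 12 genes listed as brakes on mitotic entry, 3 fell and 0 rose with PTHrP and 3 fell and 2 rose with PTH at 24 h. Gadd45g and Gadd45b, stress-induced inhibitors of CDK1, differed by -0.90 and -0.62 with PTHrP and by -0.94 and -0.93 with PTH, while Gadd45a rose by 0.82 ± 0.18 with PTH, as did the checkpoint kinase gene Chek2 (0.30). Fbxo5, an inhibitor of the anaphase-promoting complex, also fell (-0.47 with each ligand). That complex marks cyclin B for destruction, so the name of the list does not describe Fbxo5.

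**Figure D5:**
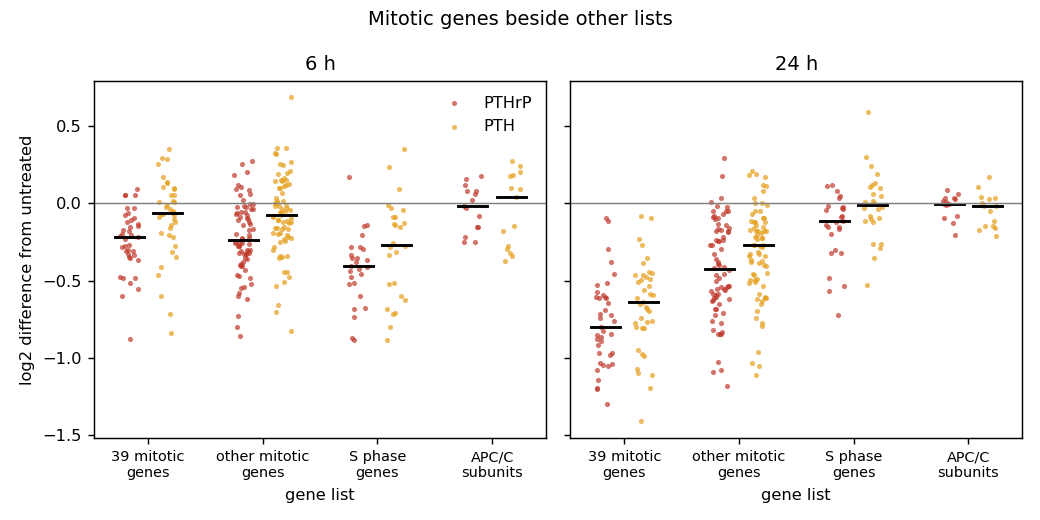
Log2 difference from untreated cells of the same time (vertical axes) for each gene (points) of 4 lists (horizontal axes), with the list's median (bar), for PTHrP and PTH at 6 h (left) and 24 h (right). The 39 mitotic genes have medians of -0.22 and -0.07 at 6 h and -0.80 and -0.64 at 24 h, and the S phase genes lie lower at 6 h (-0.41 and -0.27) than at 24 h (-0.12 and -0.01).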

How the data were processed

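The authors deposited 1 intensity per probe set and array. The submitters' processing notes name RMA, and the series' design text states that the arrays were normalized again for deposit. RMA makes the distributions of all arrays alike, so a change shared by most transcripts would be hidden and differences of dim genes are understated. Values were on a linear scale for 45101 probe sets, and log2 was taken. No 2 arrays were identical.

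An annotation table gave 1 symbol for 34945 probe sets, several for 932 and none for 9224. For a gene with several the brightest on average was used, and the 15711 genes that reached a log2 of 5 on 3 or more arrays entered the fit. limma 3.58.1 in R 4.3.3 (lmFit, eBayes) fitted 9 group means to all 27 arrays (residual degrees of freedom 18, prior 5.54). Two-sided p-values had Benjamini-Hochberg adjustment within each of 16 comparisons and a threshold of 0.05. Counts at an unadjusted p under 0.05 stand without the share of all genes at that cutoff, which was not computed. The median SE was 0.102 for a difference and 0.144 for a change of effect. The number of arrays limits the precision.

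Genes named are those with the largest differences in each comparison (up to 5 a direction), 10 named throughout, and exceptions to what most members did. Of the other lists up to 3 genes a comparison are named, and Zwint, Mcm7, Lin37, Chek2 and Rrm2 at 6 h were named after their values were seen, as the few that went against their list. The members and lists were chosen with earlier results of these data known. Deviations of same-numbered arrays from their group means all exceeded a correlation of 0.1 only between PTHrP at 1 h and its untreated cells, that is in 1 of 9 group pairs, so the numbers were not taken to pair samples. No slide or scan date was available to use as a batch. Alternatives were cyclic loess, no filter, a filter at 6, array weights, trend and robust variance, only the arrays compared, the mean of a gene's probe sets, a replicate block, and each array left out.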

Additional observations from a re-analysis of the deposited data

Results flagged for a closer look

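The change of a ligand effect between times was tested directly in limma. Between 1 and 6 h it passed for 5 of 39 members with PTHrP, where 12.2% of all genes passed, and for 4 with PTH, where 18.5% did, so these counts were near or below the share of all genes. Between 6 and 24 h it passed for 21 members with PTHrP, where 12.1% of all genes passed, and for 24 with PTH, where 20.4% did. Among the genes named throughout, the change between 1 and 6 h was 0.41 for Aurka with PTH and -0.50 for Birc5 with PTHrP. Between 6 and 24 h the change with PTHrP was -0.40 for Cdk1, -0.68 for Plk1, -0.88 for Aurka, -0.66 for Birc5, -0.78 for Top2a and -0.86 for Cdc20. With PTH it was -0.63 for Cdk1, -0.86 for Plk1, -0.94 for Aurka, -0.79 for Birc5, -0.74 for Cenpe, -0.85 for Top2a, -0.82 for Mki67 and -0.74 for Cdc20. All are log2 values, and whether these changes differ between the ligands was not tested.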

How the results depend on the processing

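Of 21840 values of single members under 8 alternatives and 27 left-out arrays, 21348 kept their side of the threshold. These include values that passed in neither fit, whose sign could change. A further 239 no longer passed, 253 passed only then, and 0 of the called ones turned sign. Array weights, which gave PTHrP replicate 3 of 1 h a weight of 0.127 and PTHrP replicate 3 of 6 h a weight of 7.214, moved the counts of members called most: 21 for PTHrP at 6 h, 1 for PTHrP at 1 h, 14 and 6 for PTHrP against PTH at 6 and 24 h, 6 for untreated 6 h against 1 h, 10 and 19 for the change from 1 to 6 h with PTH and PTHrP, and 34 for the change from 6 to 24 h with PTHrP. Calls over all genes rose with this setting as well, to 44.2% for PTHrP at 6 h and 11.2% for PTHrP at 1 h. They rose to 28.9% and 8.1% for PTHrP against PTH at 6 and 24 h and to 8.32% for untreated 6 h against 1 h. For the change from 1 to 6 h they were 27.7% with PTH and 39.6% with PTHrP, and 31.7% for the change from 6 to 24 h with PTHrP. Cyclic loess gave 4 for PTHrP against PTH at 6 h (10.1% of all genes), 2 for untreated 6 h against 1 h (3.18%) and 3 for the change from 1 to 6 h with PTHrP (13.5%). With only the arrays compared the counts were 13 for PTH at 6 h (30.6% of all genes) and 1 for PTHrP against PTH at 24 h (0.528%). They were 1 for untreated 6 h against 1 h (3.72%) and 8 for the change from 1 to 6 h with PTH (21.4%). Trend and robust variance gave 2 for PTHrP against PTH at 6 h (8.22% of all genes), and the mean of a gene's probe sets 1 at 24 h (1.18%). The cause was not tested, beyond fewer arrays where only some were used.

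With single arrays left out, members called ran from 35 to 37 for PTHrP and 28 to 36 for PTH at 24 h, 6 to 16 and 7 to 11 at 6 h, and 0 to 1 and 0 to 0 at 1 h. PTHrP against PTH ran from 0 to 0 at 1 h, 0 to 3 at 6 h and 0 to 2 at 24 h. Untreated cells gave 39 throughout at 24 h against 1 h and 6 h, and 0 to 1 at 6 h against 1 h. Changes from 1 to 6 h ran from 4 to 13 with PTHrP and 3 to 6 with PTH, and from 6 to 24 h from 15 to 26 and 19 to 28. For PTHrP against PTH at 24 h the 2 came without PTH replicate 2 of 24 h (101 of all genes) and 1 without PTHrP replicate 3 of 1 h (228). Either omission gave 1 for untreated 6 h against 1 h (354 and 585 of all genes, in the same order). With the replicate number as a replicate block, the counts at 24 h were 36 for PTHrP (5.24% of all genes) and 34 for PTH (10.2%). At 6 h they were 10 for PTHrP (19.5%), 8 for PTH (28%) and 1 for PTHrP against PTH (5.93%). None of the 16 counts moved by over 1.5 times.

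With PTH at 24 h, Bub1 passed under 5 of 35 alternatives, Cenpe under 5 and Kif4 under 1. Of these alternatives 27 only leave out a single array, often of a group not compared. They are close to the main fit, so the tally does not measure how firm the missed calls are. The difference of Foxm1 with PTHrP at 24 h passed under 1 of 35. Among these alternatives only the mean of a gene's probe sets brings in its other probe sets. The tally therefore does not bear on the disagreement of the Foxm1 probe sets. Dim probe sets limit what can be seen, and no probe-level signal over background was used here.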
